A study of Mus musculus with 2 samples.

Results

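The let-7 strands of a small RNA sequencing study of mouse liver are described here. They were chosen by name, as the mature miRNAs (microRNAs) of the let-7 family whose name carries an arm, 5p or 3p, and 8 of the 281 listed mature miRNAs met this rule, 4 of them 5p and 4 of them 3p strands. The prefix mmu-, for mouse, of their full names (mmu-let-7f-5p and so on) is left out below. The study compared 1 library of wild-type liver with 1 library of liver from a DICER1 mutant, both of the C57BL/6 background and 3 months old, as a mouse model of DICER1 syndrome, in which people who carry variants of DICER1 are prone to tumours. The column headers call the mutant hDICER1_Mut. The labels used here give neither the allele, nor the promoter or cell type behind it, nor whether the mutant sample held tumour, although the series' design text mentions both normal liver and liver cancer. With 1 library per genotype there is no replicate and no test, genotype, animal and library cannot be told apart, and all 95% intervals cover counting error only.

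Dicer cuts the stem of a precursor hairpin next to the loop and so frees a duplex of a 5p and a 3p strand. Its RNase IIIb domain makes the cut that ends the 5p strand and its RNase IIIa domain the cut that begins the 3p strand. In let-7 hairpins the 5p strand is usually the one kept in Argonaute, where its seed pairs with target mRNAs. The family is abundant in adult differentiated tissue, restrains growth genes such as Hmga2, Lin28b and Ras genes, and is blocked in embryonic cells by Lin28 proteins, which bind the loop of the precursor.

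The 4 listed 5p strands carry the same seed and differ from one another in only a few bases downstream of it, so they are shown beside let-7a-5p, a family member that is not analysed here for level. Sequences are mature miRNAs from RefSeq (GRCm38.p6), written 5′ to 3′ with the seed, bases 2 to 8, in capitals.
let-7f-5p: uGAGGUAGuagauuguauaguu
let-7g-5p: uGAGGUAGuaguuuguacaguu
let-7i-5p: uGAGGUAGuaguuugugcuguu
let-7e-5p: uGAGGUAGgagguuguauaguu
let-7a-5p: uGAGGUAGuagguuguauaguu
Counted from 1 at the 5′ end and written with the let-7a-5p base first, let-7e-5p differs by U9G and let-7f-5p by G12A. let-7g-5p differs by G12U and U18C, and let-7i-5p by G12U, A17G, U18C and A19U. The RefSeq table holds 11 mature mouse miRNAs with this seed, and 4 of them were listed. let-7j, listed without an arm, differs from let-7i-5p over the shared 22 bases only by G8U, inside the seed.
let-7j: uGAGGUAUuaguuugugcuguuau

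The 3p strands share no seed: each of the 4 has its own. They are shown because the values below separate let-7g-3p from the others.
let-7g-3p: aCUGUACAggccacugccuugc
let-7i-3p: cUGCGCAAgcuacugccuugcu
let-7e-3p: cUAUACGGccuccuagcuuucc
let-7c-1-3p: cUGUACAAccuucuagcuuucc
Among them, let-7c-1-3p and let-7e-3p are the most alike, with 4 mismatches over 22 bases. With its first base left out, let-7g-3p has 4 mismatches to let-7i-3p over 21 bases.

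Both strands were listed for 3 hairpins, whose precursors are shown with the 5p and 3p strands in capitals. The stretch between the capitals holds the loop that Dicer removes.
let-7e: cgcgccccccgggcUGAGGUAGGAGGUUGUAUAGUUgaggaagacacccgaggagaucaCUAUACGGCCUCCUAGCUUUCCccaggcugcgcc
let-7g: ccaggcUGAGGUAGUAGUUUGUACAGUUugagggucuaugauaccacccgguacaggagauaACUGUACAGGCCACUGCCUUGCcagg
let-7i: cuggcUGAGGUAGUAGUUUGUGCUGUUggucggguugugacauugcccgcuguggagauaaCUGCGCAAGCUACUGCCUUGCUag
The strands are 23 bases apart in let-7e and 34 bases apart in let-7g and let-7i. The distance is 23 bases in let-7c-1, 34 in let-7f-1 and 28 in let-7f-2, the other hairpins from which listed strands come.

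By RPM, let-7f-5p and let-7g-5p, the most abundant of the 4 listed let-7 5p strands in the wild type, lay within 2-fold between the libraries. Both were more than 2-fold lower in the mutant with the authors' factors (log2 ratios of -1.23 and -1.65), edgeR's TMM factors (-1.42 and -1.84) and DESeq2 size factors (-2.70 and -3.12), which are alternative scalings, the last 2 computed on the listed miRNAs. Only miRNAs that differed at least 2-fold on the authors' scale were listed, so with those factors a 2-fold difference was fixed in advance. let-7i-5p and let-7e-5p were several times higher in the mutant by RPM and turned slightly lower with DESeq2 size factors. Levels are given as RPM, reads scaled to a common library total, and a strand is called higher or lower when its RPM differed at least 2-fold. mmu-let-7f-5p had 150501 wild-type reads (13165 RPM) and 247649 mutant reads (13400 RPM), a ratio of 1.02 (interval 1.01 to 1.02). It ranked 8 among the 281 listed miRNAs in each library and made up 1.32% of the wild-type and 1.34% of the mutant library. mmu-let-7g-5p had 43386 wild-type reads (3795 RPM) and 53204 mutant reads (2879 RPM), and was thus 1.32-fold lower in the mutant (interval 1.302 to 1.335). let-7g-5p ranked 17 in the wild type and 23 in the mutant.

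mmu-let-7i-5p had 11019 wild-type reads (964 RPM) and 111213 mutant reads (6018 RPM), a ratio of 6.24 (interval 6.12 to 6.37). mmu-let-7e-5p had 1541 reads (135 RPM) and 11996 reads (649 RPM), a ratio of 4.82 (interval 4.57 to 5.08). The mutant level of let-7i-5p stood above that of let-7g-5p and below that of let-7f-5p, and let-7e-5p was the lowest of the 4 in both libraries. Summed, the 4 strands gave 18058 RPM in wild-type and 22946 RPM in mutant liver, a ratio of 1.27 (interval 1.26 to 1.28). This sum covers 4 of the 11 names with this seed, and it moves with the scaling like its members. In bulk liver, a different number of cells of a type and a different amount of the miRNA per cell cannot be told apart.

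**Figure D1:**
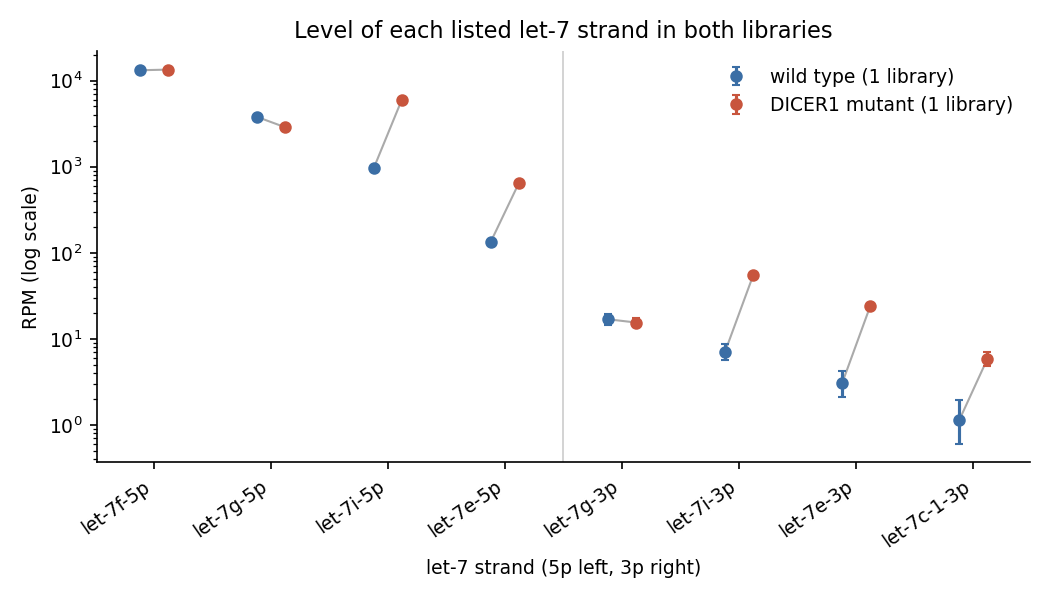
RPM on a log axis of each listed let-7 strand in the wild-type (blue) and the DICER1 mutant (red) library, 1 library each, with 95% Poisson intervals that cover counting error only. let-7f-5p, let-7g-5p and let-7g-3p keep nearly the same height, and the other 5 strands are higher in the mutant by RPM, though not with DESeq2 size factors.

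The 3p strands were rare in both libraries, and 3 of the 4 were higher in the mutant by RPM, none of them 2-fold with DESeq2 size factors. mmu-let-7i-3p had 81 wild-type reads (7.09 RPM) and 1011 mutant reads (54.7 RPM), a ratio of 7.72 (interval 6.15 to 9.81). mmu-let-7e-3p had 35 reads (3.06 RPM) and 444 reads (24.0 RPM), a ratio of 7.85 (interval 5.56 to 11.4). The intervals of these ratios overlap almost completely.

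mmu-let-7c-1-3p, the rarest member, had 13 wild-type reads (1.14 RPM) and 108 mutant reads (5.84 RPM), and its ratio of 5.14 was loosely fixed (interval 2.88 to 9.96). mmu-let-7g-3p had 193 reads (16.9 RPM) and 286 reads (15.5 RPM), and the interval of its ratio of 0.917, from 0.761 to 1.11, includes equality. It was the most abundant listed let-7 3p strand in the wild type and stood below let-7i-3p and let-7e-3p in the mutant. All 8 members passed the minimum of 10 reads over both libraries.

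In all, 5 of the 8 strands were higher by RPM, none was lower and 3 lay within 2-fold, whereas DESeq2 size factors gave 0 higher, 3 lower and 5 within. Among all 276 listed miRNAs with at least 10 reads, 62.0% were higher and 9.06% lower by the same rule, so by RPM the share of let-7 strands that were higher was close to that of the table. With TMM factors 3 of the 8 were higher, against 55.8% of the 276, and with DESeq2 size factors 0 of the 8, against 31.2%. With either of these scalings 3 of the 8 were lower, against 105 of the 276, so the lower share was also close to that of the table. By strand, 2 of 4 listed let-7 5p strands were higher and 0 lower, against 53.4% and 9.71% of 103 listed 5p strands. Of the 4 let-7 3p strands 3 were higher and 0 lower, against 74.3% and 3.47% of 144 listed 3p strands. The median log2 ratio of the 8 members was 2.31, and that of the 276 miRNAs was 2.77. With DESeq2 size factors these medians were -0.41 and 0.05. The table itself holds only miRNAs that differed at least 2-fold on the authors' scale, and no miRNA with at least 10 reads and an RPM ratio between 1.19 and 4.78 was listed. On that scale, by direction alone, the authors' deposited table gives 5 of the 8 strands as higher and 3 as lower, against 62.0% and 38.0% of the 276. The gap between the let-7 strands within 2-fold and those that were higher ran from 1.02 (let-7f-5p) to 4.82 (let-7e-5p). Most of this gap is therefore set by the listing, which leaves the same range empty for every miRNA. let-7e-5p lay just inside the listing limit, as the authors' deposited table gives it a signed fold of 2.02, and let-7c-1-3p one of 2.15.

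Within each of the 3 hairpins with both strands listed, the 5p strand held nearly all reads in both libraries, and the 3p share was slightly larger in the mutant. This share is taken within a library and does not depend on how the libraries are scaled. For let-7e, 35 of 1576 reads or 2.22% (Clopper-Pearson interval 1.55 to 3.08) were 3p in the wild type, against 444 of 12440 or 3.57% (3.25 to 3.91) in the mutant. The odds of a 3p read were 1.63 times as high in the mutant (interval 1.15 to 2.38). let-7e thus had the largest 3p share in each library and, by point estimate, the largest change of the 3. Its interval holds the odds ratios of let-7g and let-7i given below, so the order of the changes is not fixed.

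For let-7g the 3p share was 0.443% (0.383 to 0.510) of 43579 reads in the wild type and 0.535% (0.475 to 0.600) of 53490 in the mutant, an odds ratio of 1.21 whose interval, 1.003 to 1.46, just excludes equality. For let-7i it was 0.730% (0.580 to 0.906) of 11100 reads and 0.901% (0.846 to 0.958) of 112224, an odds ratio of 1.24 (interval 0.985 to 1.57, which includes equality). In reads, 225 let-7g-5p were counted for each let-7g-3p in the wild type and 186 in the mutant, and 136 and 110 for let-7i.

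The hairpins differed from one another more than their strands did. The 3p strand exceeded its 5p partner in log2 ratio by 0.70 for let-7e, 0.27 for let-7g and 0.31 for let-7i, whereas the 5p log2 ratios ran from -0.40 for let-7g to 2.64 for let-7i. Much of that 5p span was set by the listing. No miRNA with at least 10 reads and an RPM ratio between 1.19 and 4.78 was listed. Over all 58 hairpins with both strands listed under the same name and at least 10 reads per strand, the 3p share was larger in the mutant for 45 and smaller for 13, with a median odds ratio of 1.31 and a range of 0.153 to 140. Ordered from the highest odds ratio, let-7e ranked 25, let-7i 31 and let-7g 34, in the middle of that range. By RPM, both strands were at least 2-fold higher for let-7e and let-7i, as for 35 of the 58 hairpins, and neither was for let-7g, as for 18. Unlike the shares, these calls depend on the scaling: with TMM factors let-7e-5p, at a log2 ratio of 0.82, was not 2-fold higher, and with DESeq2 size factors none of the 4 let-7e and let-7i strands was.

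**Figure D2:**
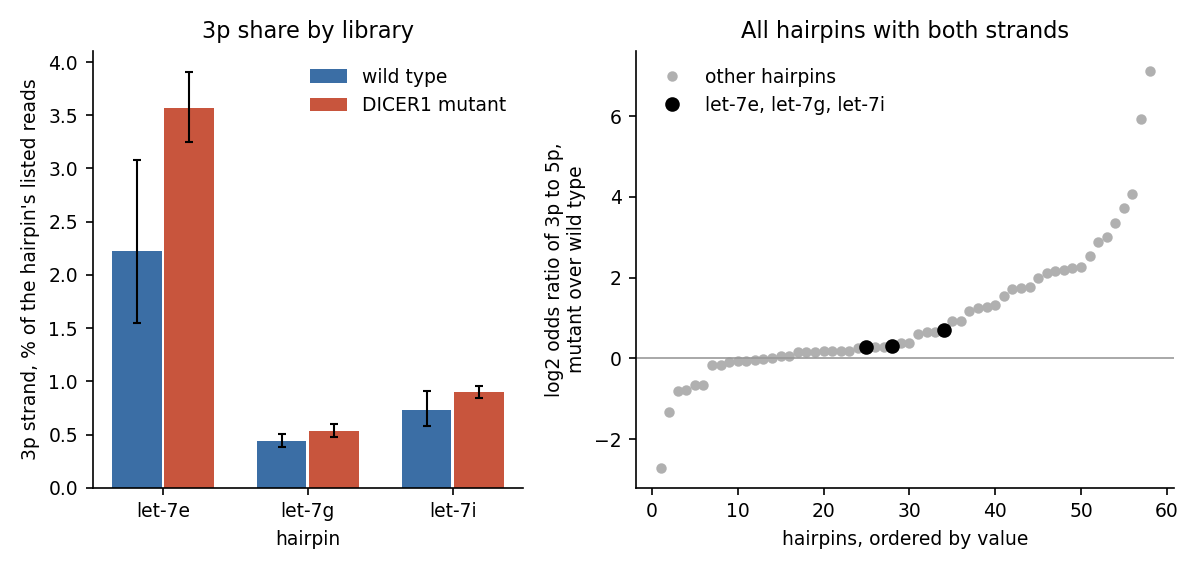
Left, the 3p strand as a percentage of the listed reads of each hairpin in the wild-type (blue) and DICER1 mutant (red) library, with 95% Clopper-Pearson intervals. Right, the log2 odds ratio of 3p to 5p reads, mutant over wild type, for 58 hairpins in order of value. let-7e, let-7g and let-7i (black) lie in the middle, at odds ratios of 1.63, 1.21 and 1.24.

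The make-up of the listed let-7 reads differed between the livers in the same way on both strands. let-7f-5p made up 72.9% of the listed let-7 5p reads in the wild type (interval 72.7 to 73.1) and 58.4% in the mutant (58.3 to 58.5). let-7g-5p made up 21.02% and 12.5%. let-7i-5p had 5.34% in the wild type (5.24 to 5.44) and 26.2% in the mutant (26.1 to 26.4), and let-7e-5p 0.746% and 2.83%. The order of let-7g-5p and let-7i-5p was exchanged. let-7g-5p had 3.94 reads for each let-7i-5p read in the wild type. In the mutant, let-7i-5p had 2.09 reads for each let-7g-5p read, an 8.23-fold change of this ratio (interval 8.04 to 8.43). Part of this change was fixed by the listing. The authors' table gives let-7g-5p as lower and let-7i-5p as higher, and miRNAs with at least 10 reads and RPM ratios between 1.19 and 4.78 were not listed.

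The 3p strands of the same hairpins showed a change of like size. let-7i-3p had 0.420 reads per let-7g-3p read in the wild type and 3.53 in the mutant, an 8.42-fold change (interval 6.24 to 11.4). Part of it was likewise fixed by the listing, as the authors' table gives let-7g-3p as lower and let-7i-3p as higher. let-7g-3p made up 59.9% (54.4 to 65.3) of the 322 listed let-7 3p reads of the wild type and 15.5% (13.8 to 17.2) of the 1849 of the mutant, and let-7i-3p made up 25.2% (20.5 to 30.3) and 54.7% (52.4 to 57.0). let-7e-3p made up 10.9% and 24.0%, and let-7c-1-3p 4.04% and 5.84%. The last difference lies within the counting intervals of 2.17% to 6.80% and 4.82% to 7.01%. These shares are of listed strands, and let-7a, let-7b, let-7c-5p, let-7d and miR-98 are not analysed here.

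**Figure D3:**
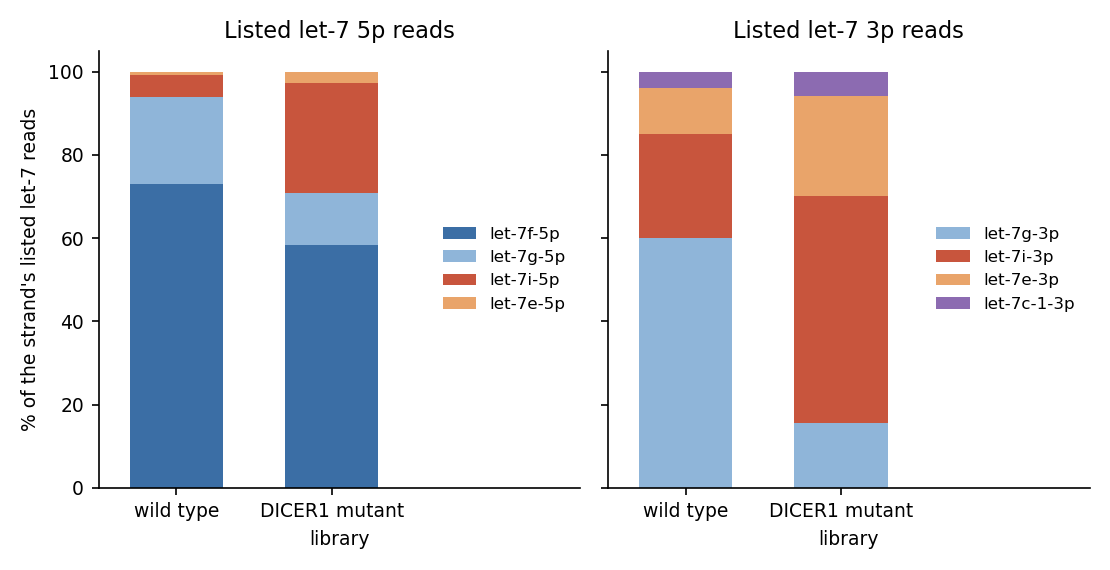
Share of each strand in the listed let-7 5p reads (left) and 3p reads (right) of the wild-type and DICER1 mutant library, in percent. let-7i (red) makes up 5.34% of wild-type and 26.2% of mutant 5p reads, and 25.2% and 54.7% of 3p reads, and the share of let-7g (light blue) is smaller in the mutant on both strands.

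The hairpins lie on chromosomes 9, 10, 13, 16, 17 and X in GENCODE M21 on GRCm38 (mm10), and let-7 strands from the same hairpin lay on the same side of 2-fold by RPM. This was common in the table: of the 58 hairpins with both strands listed, 35 had both strands 2-fold higher, 18 neither and 5 only the 3p strand. let-7g lies on chromosome 9 (106178840 to 106178927, plus strand) in an intron of Wdr82, a subunit of a histone methyltransferase complex, and both of its strands lay within 2-fold. let-7i lies on chromosome 10 (122985640 to 122985724, minus strand), in an annotated exon of D630033A02Rik, and both of its strands were higher. let-7f-5p is made from 2 hairpins that give the same mature sequence and cannot be told apart. One is let-7f-1 on chromosome 13 (48537829 to 48537917, minus strand), in an exon of the noncoding gene 6720427I07Rik, with 261 bases to let-7a-1 and 1714 to let-7d. The other is let-7f-2 on the X chromosome (151912346 to 151912428, plus strand), in an intron of the ubiquitin ligase gene Huwe1, with 785 bases to mir-98.

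let-7e and let-7c-1 sit in clusters with mir-99 and mir-125 hairpins, and the listed 3p strands of the hairpins next to them had larger ratios than the let-7 strands. let-7e is on chromosome 17 (17830352 to 17830444, plus strand) in an intron of Spaca6, 94 bases from mir-99b and 367 bases from mir-125a. miR-99b-3p had 40 reads in the wild type and 2878 in the mutant, a ratio of 44.5 (interval 32.6 to 62.4), and miR-125a-3p had 23 and 505, a ratio of 13.6 (8.95 to 21.6). Both intervals lie above that of let-7e-5p, 4.57 to 5.08, and that of miR-99b-3p also lies above that of let-7e-3p. The interval of miR-125a-3p overlaps that of let-7e-3p. The median log2 ratio of the 144 listed 3p strands with at least 10 reads was 3.52. Against it, miR-125a-3p stood at 3.76, miR-99a-3p at 3.91, miR-99b-3p at 5.48, let-7e-3p at 2.97 and let-7c-1-3p at 2.36. No 5p strand of mir-99b, mir-125a or mir-125b was listed.

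let-7c-1 is on chromosome 16 (77599657 to 77599750, plus strand) in an intron of the noncoding gene Mir99ahg, 656 bases from mir-99a. miR-99a-5p had 4071 and 7492 reads, a ratio of 1.14 (1.10 to 1.18) that was below equality with the authors' factors, TMM, DESeq2 size factors and totals without the most abundant miRNAs, and miR-99a-3p 389 and 9483, a ratio of 15.1 (13.6 to 16.7). The 2 strands of this neighbour thus lay much farther apart than those of any let-7 hairpin with both strands listed. let-7c-1-3p, at 5.14, lay between them. From the third cluster of this kind, around let-7a-2 on chromosome 9, the neighbours miR-100-3p and miR-125b-1-3p were listed, with ratios of 6.80 (3.15 to 17.5) and 13.6 (10.1 to 18.7).

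**Figure D4:**
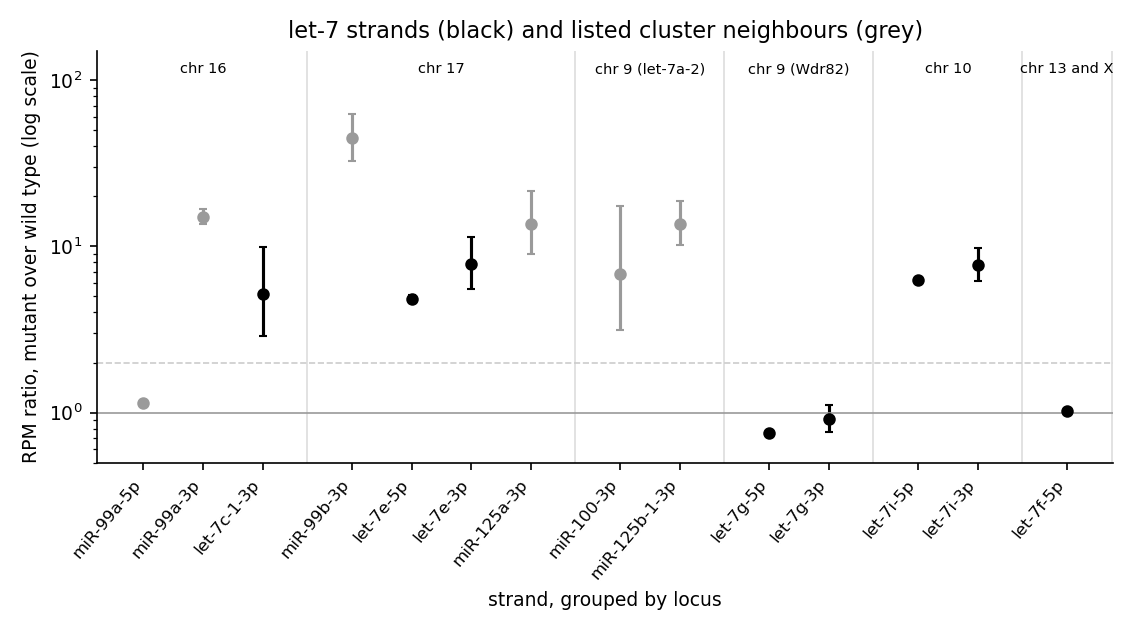
RPM ratio, mutant over wild type, on a log axis with 95% counting intervals for the let-7 strands (black) and the listed strands of their cluster neighbours (grey), grouped by locus. The solid line marks equality and the dashed line 2-fold. By RPM, let-7e and let-7i strands lie between 4.82 and 7.85, let-7g and let-7f strands near equality, and miR-99b-3p reaches 44.5.

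Because the 5p strands are so alike, the counts depend on how reads with a sequencing error or several matches were assigned, a rule not given in the sources used. let-7e-5p and let-7f-5p differ at 2 of 22 bases, as do let-7f-5p and let-7g-5p, and let-7g-5p and let-7i-5p. let-7j had 1628 wild-type reads (142 RPM) and 13222 mutant reads (715 RPM), a ratio of 5.02 (interval 4.77 to 5.29). Per 1000 reads of let-7i-5p, 1 base away, 148 let-7j reads were counted in the wild type and 119 in the mutant. Per let-7e-5p read, 6 bases away, there were 1.06 and 1.10 let-7j reads, so let-7j lay nearer in ratio to let-7e-5p than to let-7i-5p. Whether let-7j reads stem from let-7i was not tested.

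The direction of the ratios rests on the scaling between the libraries. The listed miRNAs took 81.8% of 11432192 reads in the wild type and 61.2% of 18480608 in the mutant, so 38.8% of the mutant library lies outside the table, against 18.2% of the wild type. On the authors' scale every ratio is 2.38 times smaller than by RPM, and the authors' deposited table gives let-7f-5p, let-7g-3p and let-7g-5p as lower, with signed folds of -2.34, -2.60 and -3.14. The same authors' deposited table gives let-7i-5p as 2.62-fold, let-7i-3p as 3.24-fold and let-7e-3p as 3.29-fold higher. With DESeq2 size factors computed on the listed rows, which shift all log2 ratios by -2.73, none of the 8 strands was 2-fold higher, 3 were lower, and let-7i-5p, let-7e-5p and let-7c-1-3p turned to the lower side of equality. The order of the members and their ratios to one another are the same on every scale.

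**Figure D5:**
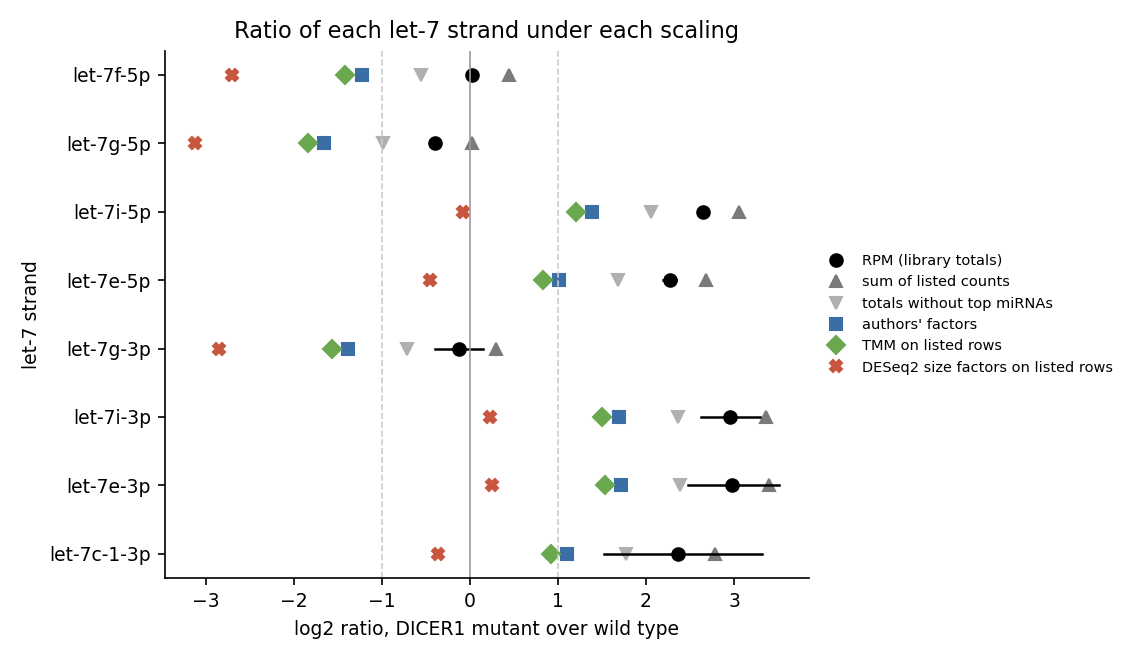
Log2 ratio, mutant over wild type, of each let-7 strand under the RPM scale (black, with its 95% counting interval) and 5 other scalings. Dashed lines mark 2-fold. Each scaling moves all strands by the same amount, and let-7f-5p, let-7g-5p and let-7g-3p lie left of the other 5 on each.

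The listed miRNAs nearest to let-7i-5p in RPM ratio, among 113 with at least 1000 reads, were miR-181b-5p (6.18), miR-181a-1-3p (6.03), miR-411-5p (6.71), miR-106b-3p (7.04) and miR-15b-5p (5.30). Those nearest to let-7f-5p were miR-365-3p (1.01), miR-345-5p (0.988), miR-107-3p (1.07), miR-802-3p (1.08) and miR-31-5p (1.11). Likeness here is that of 1 ratio from 2 libraries.

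Listed markers of cell types are given beside the let-7 strands. Only miRNAs that differed at least 2-fold on the authors' scale were listed. A difference in the listed markers was therefore fixed in advance, though not its direction. Of 5 hepatocyte marker strands, 4 were listed, at 406686 RPM summed in wild-type and 163435 RPM in mutant liver, so markers of the labelled tissue were abundant in both, and by RPM 3 of them were lower and none higher. All 5 leukocyte markers were listed and higher, from 1823 to 9661 RPM summed, with ratios of 4.78 to 10.1. Of 7 mesenchymal and endothelial markers, the 3 listed were higher, from 957 to 12142 RPM, with ratios of 10.5 to 17.1. These 3 were miR-199a-5p, miR-199a-3p and miR-214-3p. The other markers of this group, among them the miR-126a strands, were not listed, so the call rests on these 3 alone. All 5 biliary and epithelial markers were higher, from 161 to 4436 RPM, with ratios of 17.4 to 107. With DESeq2 size factors 0 leukocyte, 1 mesenchymal and all 5 biliary markers stayed 2-fold higher. Of the 276 listed miRNAs with at least 10 reads, 62.0% were higher and 9.06% lower by RPM, and 31.2% were higher with DESeq2 size factors. Their median log2 RPM ratio was 2.77, and the leukocyte ratios lay on both sides of that median. The lowest leukocyte ratio, 4.78, was also the lowest of any listed miRNA that was higher. No listed marker was at 0 in either library. The part of these cells in the higher let-7i and let-7e levels was not tested.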

How the data were processed

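Total liver RNA was made into small RNA libraries with the SMARTer smRNA-seq kit for single-end sequencing, per the labels' protocols. Reads were mapped to mm10 and to miRBase 22.1 and classed by arm, per the labels' protocols, and the submitters' processing notes name cutadapt. Not given in the sources used here are the aligner, the rule for reads with several matches, any molecular identifiers and the authors' test.

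The deposited table has raw read counts per mature miRNA and RPM values of the same counts. Count divided by RPM is constant within a library and gives the library totals. The authors' log2 values are those of 1 plus a scaled RPM, with a factor of 1.46 for the wild-type and 0.611 for the mutant library, and a signed fold score by the authors is given too. The authors' deposited p-values, which rest on 2 libraries, were left out.

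Ratios of RPM were given exact conditional binomial intervals, shares Clopper-Pearson intervals, and odds ratios exact conditional intervals (scipy 1.17.1, Python 3.11.15), all at 95%. No pseudocount was added. The minimum was 10 reads over both libraries, and 5 of 281 miRNAs fell below it. Reads that are PCR copies are not separate molecules, and the intervals cover only counting error. A count of 3 reads amounts to 0.262 RPM (wild type) or 0.162 RPM (mutant). No test was run. TMM factors (edgeR 4.0.16) and size factors (DESeq2 1.42.0) were computed on the counts only as alternative scalings. The interval script was tested on simulated data. All 8 members matched a RefSeq mature sequence. All 8 members are named, with let-7j, the listed cluster neighbours and, by rule, the 5 miRNAs nearest in ratio to let-7i-5p and to let-7f-5p among those with at least 1000 reads. The members, lists and alternatives were chosen with earlier results of these data known.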

Additional observations from a re-analysis of the deposited data

How the results depend on the processing

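Pseudocounts of 0.5 reads and of 1 RPM, the absence of a read minimum, a minimum of 100 reads and fold limits of 1.5 and 4 left the counts of let-7 strands at 5 higher and 0 lower, and adding let-7j gave 6 higher. The fold limits could not change the higher count, as no miRNA with at least 10 reads and an RPM ratio between 1.19 and 4.78 was listed. Nor could the read minimums, as the rarest member had 121 reads over both libraries. The sum of the listed counts, the totals without the most abundant miRNAs and the authors' factors also left 5 higher. For the authors' factors this was fixed in advance, as only miRNAs that differed at least 2-fold on that scale were listed. TMM factors gave 3 higher and 3 lower, DESeq2 size factors 0 and 3, and the authors' factors 5 and 3. With DESeq2 size factors the log2 ratios of let-7i-5p, let-7e-5p, let-7c-1-3p and let-7j became -0.083, -0.46, -0.36 and -0.40. These factors were computed on listed miRNAs, most of which were higher by RPM. Of the 6 listed cluster neighbours, 5 were higher and 0 lower by RPM, and 1, miR-99a-5p, was lower with TMM factors, DESeq2 size factors and the authors' factors. Of all listed miRNAs, 171 were higher and 25 lower by RPM. The lower count was 105 with TMM factors, DESeq2 size factors and the authors' factors, 60 without the most abundant miRNAs and 13 with a minimum of 100 reads, and the higher count was 154 with TMM factors and 86 with DESeq2 size factors.

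The odds ratios of the 3p strand stayed within their intervals with 0.5 added to each count. Summed over the 3 hairpins the odds ratio was 1.79, and it was 1.57 without let-7e, 1.28 without let-7g and 2.21 without let-7i, against 1.63, 1.21 and 1.24 for let-7e, let-7g and let-7i alone. The sums pool hairpins with unlike 3p shares, which contribute unlike parts of the reads in the 2 libraries. They therefore do not measure a change of strand within a hairpin. The share of let-7i-5p was 4.91 times as high in the mutant among let-7 5p reads, 4.80 with let-7j added, 8.34 among all listed reads and 6.24 of the library total. No paired analysis was possible because each genotype has 1 library. Depth limits let-7c-1-3p most, with 13 wild-type reads.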
